A study of Mus musculus with 12 samples.

Results

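Genes of the skeletal muscle sarcomere and of the systems that fuel and trigger it were followed through 12 subcutaneous tumors. The set was chosen by name: 35 genes were listed, 34 of them were found among the 14496 genes of the deposited table, and Cav3 was not analysed here. Of these 34, 33 passed the filter on low values, which asks for 6 or more tumors with a log2 CPM (reads of a gene scaled to the size of the library) of 0 or higher, as did 14008 genes in all. Only the calcium sensor gene Tnnc2 did not pass.

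The tumors were grown under the skin from Renca, a mouse renal carcinoma cell line, in BALB/C mice and were taken on day 14. In the IK group (IK1 to IK6, 6 tumors) a second tumor was growing in the kidney at the same time, and in the SC group (SC1 to SC6, 6 tumors) there was none. Whole tumors were used, so RNA of cancer cells and of host tissue is mixed, and all tumors derive from a single cell line. Nothing in the labels ties tumors to individual mice, so p-values speak only to the spread between these samples, which may be technical in part.

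Skeletal muscle contracts when myosin of the thick filaments pulls on actin of the thin filaments inside repeating units called sarcomeres. Troponin and tropomyosin on the thin filament keep myosin from pulling on actin until calcium leaves the sarcoplasmic reticulum. The Z-disc anchors neighbouring sarcomeres to each other. Most of the genes below are made at high levels in muscle fibres and at very low levels in epithelial cells. A thin sheet of striated muscle, the panniculus carnosus, lies under the skin of mice. In a bulk sample, fewer muscle cells and less RNA per muscle cell cannot be told apart.

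Nearly all of these genes rose and sank together from tumor to tumor, and the 12 tumors differed far more within a group than between groups. That comparison leans on SC6. The median difference of the set between the groups (IK minus SC) was -0.12 log2 units with SC6 and -0.91 without it. SC6 had the lowest level of 33 of the 34 genes, against 10.3% of all tested genes that were lowest in that tumor. SC5 had the highest level of 32 of the 34, against 18.1% of all tested genes. Tumor IK1 came second lowest for 30 of the 34, a count for which no share over all tested genes was taken. Over the 12 tumors the median gene of the set spanned 5.79 log2 units between its lowest and highest tumor, and 3.08 log2 units without SC6, where the median of all tested genes was 0.39. A span of at least 4 log2 units was seen for 90 of the 14008 tested genes, and 26 of those 90 belong to the set. Relative to each gene's own median, the middle gene of the set stood at -4.05 log2 units in SC6, at -1.46 in IK1 and at -0.73 in IK4, and on the high side at 0.58 in IK2, 0.75 in SC1 and 1.52 in SC5. The other 6 tumors lay between -0.31 and 0.52.

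**Figure D1:**
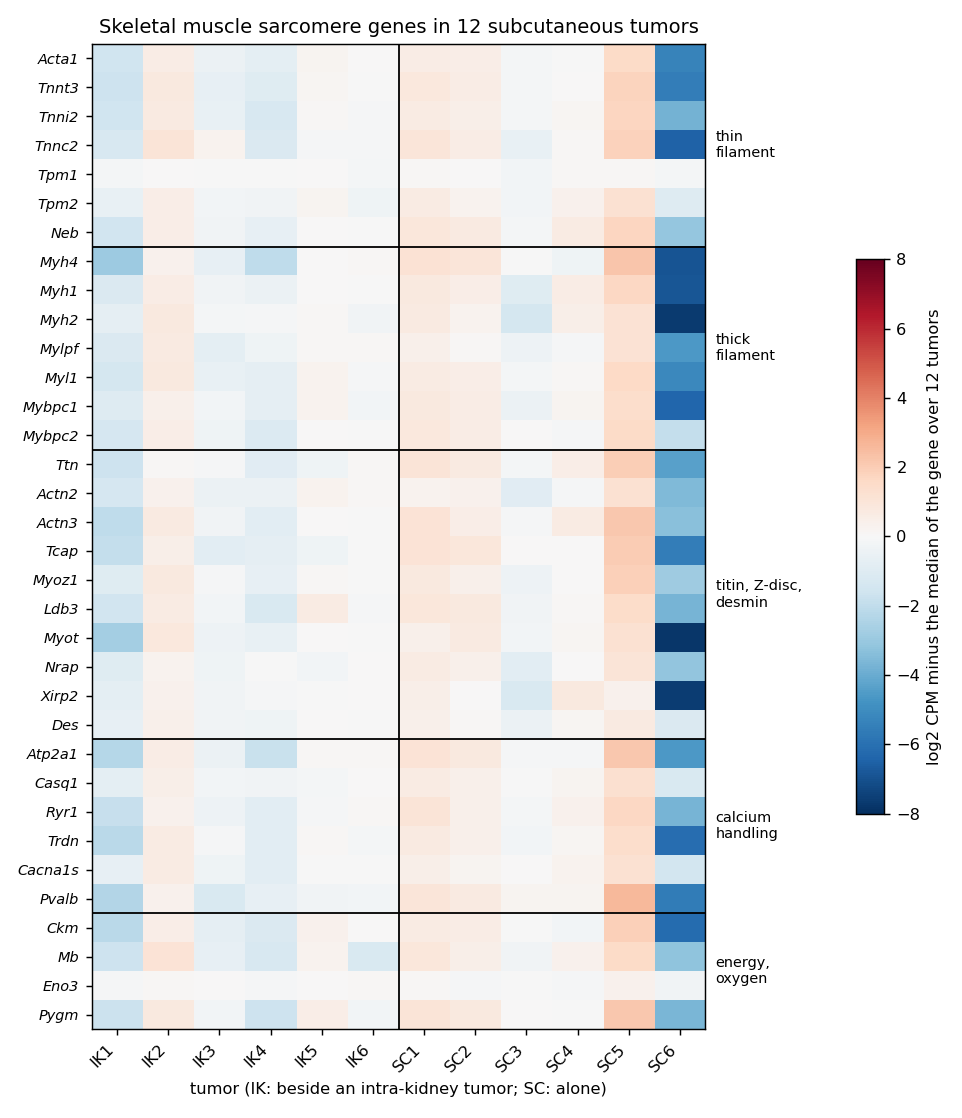
Level of each of the 34 genes (rows, grouped by role) in each of the 12 tumors (columns), as log2 CPM minus the median of that gene over the tumors. SC6 forms a blue column in nearly every row and SC5 a red one, while Tpm1 and Eno3 are nearly white throughout, with spans of 0.29 and 0.63 log2 units.

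As a share of all reads recovered for the 14496 genes of the table, the set was small. Its 34 genes took 0.0701% of reads in SC6 (95% Wilson interval 0.0694 to 0.0708) and 0.171% in SC5 (0.170 to 0.172), with 0.0791 to 0.118% in the IK group. Tpm1 alone made up 0.0601 to 0.0744% in every tumor. Tpm1, Tpm2, Des and Eno3 are known to be expressed outside skeletal muscle as well, and without these 4 genes, a choice made after their values were seen, the set took 0.00121% of reads in SC6 (0.00112 to 0.00131) and 0.0781% in SC5 (0.0774 to 0.0788). That is a 64.5-fold span. It narrows to 9.17-fold over the 11 tumors other than SC6. Intervals cover counting error only.

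Promoter sequences are shown for 5 genes of contrasting behaviour. Acta1 and Myh4 had a large spread, and Ckm is the reference used further down. Xirp2 had an order of tumors unlike that of most of the set, and the level of Tpm1 hardly moved. The sequences are RefSeq windows on build GRCm38.p6, from 250 bases before to 50 bases after the annotated start. They read 5′ to 3′ along the gene. The windows lie at chr8:123894726-123895025, minus strand (Acta1), chr11:67237562-67237861, plus strand (Myh4), chr7:19410844-19411143, plus strand (Ckm), chr2:67445752-67446051, plus strand (Xirp2) and chr9:67049164-67049463, minus strand (Tpm1). The deposited values were made on mm9, so these positions do not apply to that build. Capitals mark matches to the CArG box, the MEF2 site or TATAAA on either strand.
Acta1: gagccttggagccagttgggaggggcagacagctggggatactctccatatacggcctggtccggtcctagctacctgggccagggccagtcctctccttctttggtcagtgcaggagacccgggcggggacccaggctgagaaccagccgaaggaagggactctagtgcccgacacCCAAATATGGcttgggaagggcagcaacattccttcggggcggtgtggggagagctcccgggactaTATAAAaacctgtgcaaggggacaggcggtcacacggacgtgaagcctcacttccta
Myh4: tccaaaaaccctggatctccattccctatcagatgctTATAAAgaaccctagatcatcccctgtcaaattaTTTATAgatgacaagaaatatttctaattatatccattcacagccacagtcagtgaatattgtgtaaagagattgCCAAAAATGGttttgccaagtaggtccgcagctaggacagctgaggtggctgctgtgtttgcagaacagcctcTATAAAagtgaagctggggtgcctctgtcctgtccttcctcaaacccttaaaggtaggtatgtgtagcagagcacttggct
Ckm: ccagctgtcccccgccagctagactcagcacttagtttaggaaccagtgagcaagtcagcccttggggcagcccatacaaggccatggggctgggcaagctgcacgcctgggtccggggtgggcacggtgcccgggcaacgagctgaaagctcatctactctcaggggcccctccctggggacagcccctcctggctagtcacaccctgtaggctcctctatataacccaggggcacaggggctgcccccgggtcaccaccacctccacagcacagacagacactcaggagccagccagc
Xirp2: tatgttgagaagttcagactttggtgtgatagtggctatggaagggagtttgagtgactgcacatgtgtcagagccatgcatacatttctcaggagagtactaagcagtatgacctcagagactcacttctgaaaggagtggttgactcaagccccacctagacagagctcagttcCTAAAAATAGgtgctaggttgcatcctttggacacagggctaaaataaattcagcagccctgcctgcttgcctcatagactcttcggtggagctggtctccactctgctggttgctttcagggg
Tpm1: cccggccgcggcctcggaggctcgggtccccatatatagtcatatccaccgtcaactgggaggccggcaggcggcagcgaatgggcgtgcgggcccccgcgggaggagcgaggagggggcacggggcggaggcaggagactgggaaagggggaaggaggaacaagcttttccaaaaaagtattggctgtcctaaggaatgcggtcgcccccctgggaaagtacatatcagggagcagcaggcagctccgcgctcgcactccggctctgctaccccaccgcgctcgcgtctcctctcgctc

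A promoter window was matched for 27 of the 35 listed genes and for 27025 genes in all. Where a gene had more than 1 window, as 3 of the 27 did (Ldb3, Pvalb and Mb), only the first listed was searched. The CArG box, which serum response factor binds, was found in 3 of the 27 windows (Acta1, Myh4 and Ldb3) and in 1.57% of all windows. A MEF2 site, bound by the MEF2 factors of muscle, was found in 2 of 27 (Ttn and Xirp2) and in 0.566% of all windows. TATAAA was found in 5 of 27 and in 14.2% of all. The letters CATTCC, the core of the MCAT element, were found in 10 of 27 and in 14.6% of all. The E-box CANNTG, the general form of the sites of MyoD and its relatives, was found in 22 of 27 and in 72.1% of all windows, so it separates little. Both strands were searched and motifs were counted whether or not they overlapped. A match in such a window is a description of the letters.

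The thin filament is built on skeletal alpha actin, encoded by Acta1. Acta1 lay at 4.06, 6.27, 5.19, 4.91, 5.90 and 5.69 log2 CPM in IK1 to IK6, and at 6.31, 6.24, 5.50, 5.67, 7.20 and 0.36 in SC1 to SC6. SC1 to SC5 thus stood within or above the IK range, and SC6, with 68 reads, stood far below it. The median of the other 11 tumors was 40.3-fold above SC6. The groups had means of 5.34 ± 0.79 and 5.21 ± 2.45 log2 CPM (SD, n = 6 each), and the difference, IK minus SC, was 0.13 with a standard error of 0.93 (limma, Benjamini-Hochberg adjusted p = 0.959).

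The fast troponin genes were, like actin, lowest in SC6 and highest in SC5. Tnnt3, the tropomyosin-binding troponin T of fast fibres, ranged from 2.02 to 4.43 log2 CPM in the IK group and from 3.54 to 5.49 in SC1 to SC5, with -1.88 in SC6. Tnni2, the inhibitory subunit, ranged from 1.70 to 3.99 and from 3.13 to 4.97, with -0.51 in SC6. Tnnc2, the calcium-binding subunit, had no read in SC6 and 20 to 193 reads in the other tumors. Taking 3 counts as the floor in SC6, the median CPM of the other 11 tumors was at least 15.8-fold higher. Nebulin, the giant ruler protein of the thin filament, encoded by Neb, kept 53 reads in SC6 and was 8.89-fold lower there than the median of the other 11 tumors.

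The 2 tropomyosin genes stood apart from the troponins. Tpm1, also made in many non-muscle cells, had a lowest, median and highest value of 9.27, 9.42 and 9.48 log2 CPM in the IK group and 9.24, 9.47 and 9.53 in the SC group. No tumor stood out for Tpm1: SC3 was lowest, SC6 (9.27) lay at the lower edge of the IK range, and the groups overlapped. Tpm2 lay between, at 4.16 to 5.28 log2 CPM in the IK group and 4.55 to 5.99 in SC1 to SC5, with 3.71 in SC6.

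Among thick filament genes, the fast myosin heavy chain gene Myh4, typical of type IIb fibres, had the widest span of the set, 9.14 log2 units. It lay at 1.39, 4.59, 3.60, 2.25, 4.30 and 4.34 log2 CPM in IK1 to IK6 and at 5.41, 5.24, 4.25, 3.96, 6.49 and -2.65 in SC1 to SC6. SC5 had 5703 reads of Myh4, IK1 had 159 and SC6 had 8. Means were 3.41 ± 1.31 and 3.78 ± 3.28 log2 CPM (SD, n = 6 each), with a difference of -0.37 and a standard error of 1.28 (limma, adjusted p = 0.912). Mylpf, the fast regulatory light chain, had a lowest, median and highest value of 2.95, 3.97 and 4.83 in the IK group and -0.51, 4.10 and 5.26 in the SC group, the lowest again being SC6. The essential light chain gene Myl1 and the slow-type myosin binding protein C gene Mybpc1 fell to 16 and 3 reads in SC6. Mybpc2, the fast-type form of that protein, kept 108 reads and a level only 3.80-fold below the median of the other 11 tumors.

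Fast fibres come in subtypes that differ in heavy chain, with Myh4 in IIb, Myh1 in IIx and Myh2 in IIa fibres. Scaled by exon length, Myh4 made up 23.4% of the summed level of these 3 genes in IK1, 25.6% in IK4, 45.0% in IK3, 46.6% in IK2, 52.1% in IK5 and 56.2% in IK6. In the SC group its share was 38.0% in SC4, 59.1% in SC1, 61.2% in SC2, 64.4% in SC5 and 70.3% in SC3. Myh2 had its largest shares, 29.6% and 27.9%, in IK1 and IK4, and its smallest among the 11 tumors with over 100 reads of it, 7.61%, in SC3. The 11 tumors therefore differed in the mix of fast chains as well as in their amount, and the ranges of the groups overlap. SC6 had 14 reads of the 3 genes together, too few for a mix. These genes are close relatives in sequence, and how reads matching more than 1 of them were counted is not given in the sources used here.

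**Figure D2:**
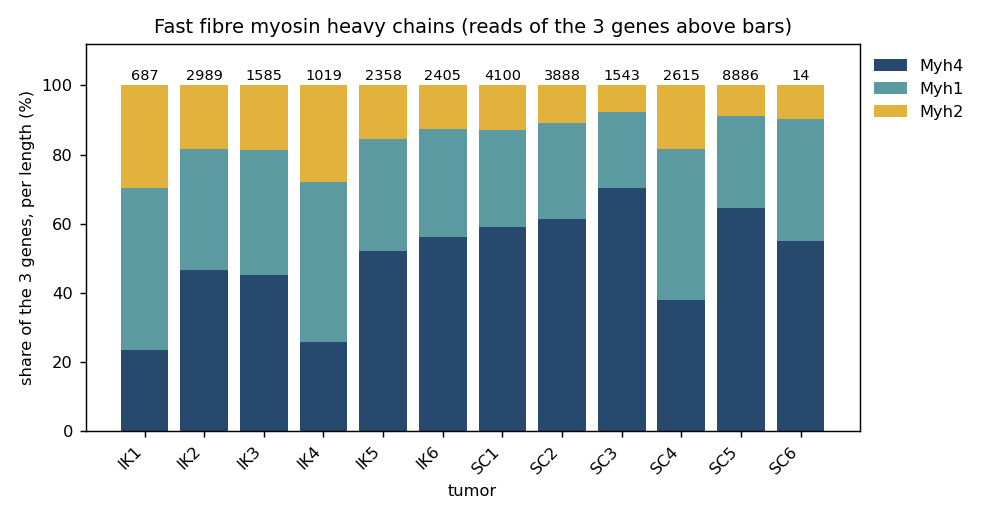
Share (%) of Myh4, Myh1 and Myh2 in their summed length-scaled level, for each tumor, with the reads of the 3 genes above each bar. Myh4 makes up 23.4 to 56.2% in the IK group and 38.0 to 70.3% in SC1 to SC5, and the bar of SC6 rests on 14 reads.

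Slow fibre genes were mostly outside the analysed table. Of 8 slow isoform genes on the list, Myh7, Myl2, Myl3, Tnnc1 and Tnni1 were not analysed here. Every gene of the table has a log2 CPM of 0 or more in at least 2 tumors. Of the 3 that were found, Tnnt1, slow troponin T, spanned 2.25 log2 units. It lay at -1.71 log2 CPM in IK1, its lowest tumor, and at -1.69 in SC6. Casq2 spanned 1.17 log2 units and was lowest in SC6 (-0.55). Tpm3, which non-muscle cells also express, stood at 7.39 log2 CPM in SC6 and at 7.45 to 7.79 in the other tumors.

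All 10 titin, Z-disc and desmin genes were lowest in SC6, by unequal amounts, and 9 were highest in SC5. Titin (Ttn), the elastic spring of the sarcomere, lay at 1.07 to 2.82 log2 CPM in the IK group and 2.57 to 4.67 in SC1 to SC5, with -1.61 in SC6. Tcap, which caps titin at the Z-disc, had 2 reads in SC6 and at least 35 in every other tumor. Myot, a Z-disc actin crosslinker, had 0 reads in SC6 and 18 to 294 elsewhere, so the median CPM of the other 11 tumors was at least 37.4-fold higher than the floor of 3 counts. The alpha-actinin genes Actn2 and Actn3, Myoz1, Ldb3 and Nrap kept 8 to 25 reads in SC6. Desmin (Des), the intermediate filament of muscle cells and of pericytes, lay at 4.24, 4.75 and 5.30 log2 CPM (lowest, median and highest) in the IK group and at 3.77, 5.04 and 5.62 in the SC group, a span of 1.85 log2 units.

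Xirp2, which encodes an actin-binding repeat protein of cell junctions and Z-discs, departed from the common order. Its highest tumor was SC4 (4.48 log2 CPM), not SC5 (4.01), and its lowest, after SC6 (-3.93, 3 reads), was SC3 (2.44). The IK tumors lay close together at 2.87, 3.61 and 4.01 (lowest, median and highest). Set against Ckm, Xirp2 stood at log2 ratios of 1.00 in IK1, 0.68 in IK4 and 0.63 in SC4, and at -1.55 in SC3 and -1.94 in SC5. IK1, IK4 and SC4 were also the 3 tumors with the lowest share of Myh4 among the fast heavy chains. Other genes shared parts of the order of Xirp2. Myh2 also had SC3 as its lowest tumor after SC6 (1.06 log2 CPM). Outside the set, Csrp3 did so too (0.99), and Klhl40 and Synpo2l were highest in SC4.

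All 6 calcium handling genes were lowest in SC6 and highest in SC5. Atp2a1, the fast fibre pump that returns calcium to the sarcoplasmic reticulum, had a lowest, median and highest value of 1.05, 3.14 and 3.93 log2 CPM in the IK group and -1.25, 3.69 and 5.51 in the SC group. The cytosolic calcium buffer Pvalb ranged over 8.19 log2 units, from 2 reads in SC6 to 869 in SC5. Ryr1, the calcium release channel, and Trdn, the triadin that ties it to its store, had 15 reads and 1 read in SC6. Casq1, the calcium store protein of fast fibres, and Cacna1s, the voltage sensor, were lowered least in SC6, by 2.33-fold and 2.90-fold against the median of the other 11 tumors. Casq1 lay at 0.97, 1.55 and 2.19 in the IK group and at 0.52, 2.03 and 3.04 in the SC group (lowest, median and highest).

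The energy genes split in the same way. Ckm, the muscle creatine kinase that regenerates ATP during contraction, lay at 1.87, 4.60, 3.32, 2.89, 4.35 and 4.08 log2 CPM in IK1 to IK6 and at 4.70, 4.62, 3.99, 3.85, 5.95 and -2.09 in SC1 to SC6. SC6 had 12 reads of Ckm against 221 or more in every other tumor. Means were 3.52 ± 1.03 and 3.50 ± 2.84 log2 CPM (SD, n = 6 each), with a difference of 0.02 and a standard error of 1.10 (limma, adjusted p = 0.995). Pygm, the muscle glycogen phosphorylase, and Mb, the oxygen store myoglobin, were lower in SC6 than the median of the other 11 tumors by 13.2-fold and 11.3-fold. Eno3, the muscle form of the glycolytic enzyme enolase, was the exception, with 5.69, 5.83 and 5.89 in the IK group and 5.47, 5.72 and 6.10 in the SC group (lowest, median and highest).

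**Figure D3:**
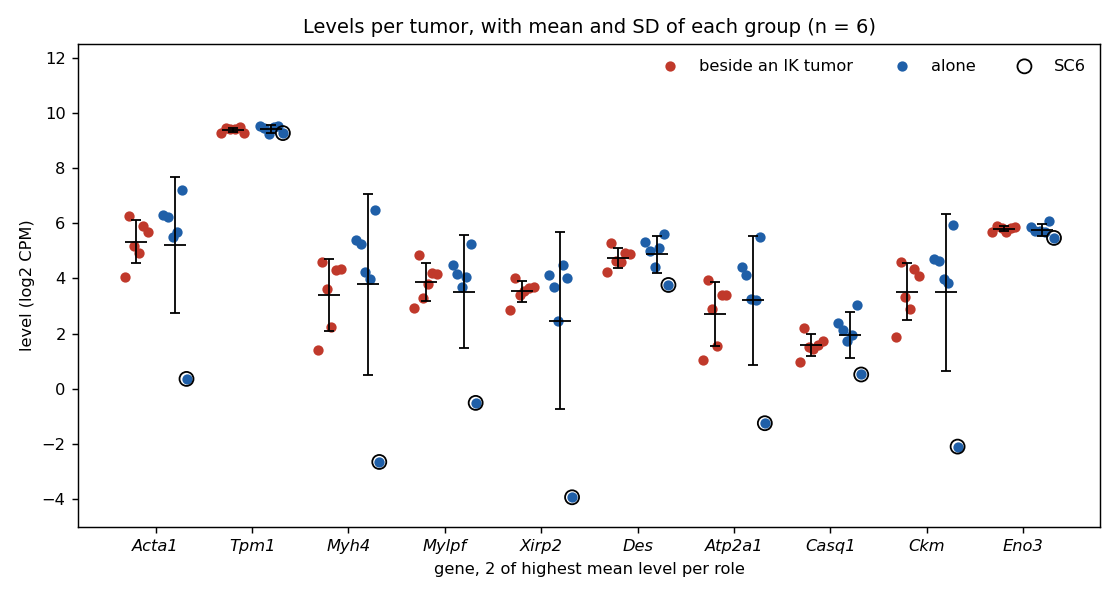
Level (log2 CPM) in each tumor of the 2 genes of highest mean level in each of the 5 roles, with the mean and SD of each group (n = 6) as black bars and SC6 ringed. SC6 lies far below the other 5 SC tumors for Acta1, Myh4, Mylpf, Xirp2, Atp2a1 and Ckm, and next to or among them for Tpm1 and Eno3.

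Between the groups, 0 of the 33 tested genes passed the threshold of 0.05 after adjustment, and 0 had an unadjusted p under 0.05 (limma). Of all 14008 tested genes, 0% passed after adjustment and 11.5% had an unadjusted p under 0.05. Limma voom on the recovered reads gave 0 of 33 on both counts as well. Of all tested genes, 46.7% had a lower mean in the IK group. Of the 33 genes, 19 had a lower and 14 a higher mean there, with differences from -0.59 (Pvalb) to 1.06 (Xirp2). Their median difference was -0.12, beside 0.01 for all tested genes. By role the medians were -0.17 over the 6 tested thin filament genes, 0.35 over 7 thick filament genes, -0.12 over 10 genes of titin, Z-disc and desmin, -0.39 over 6 calcium genes and -0.22 over 4 energy genes. The smallest adjusted p in the set was 0.624 (Casq1).

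SC6 weighs on every one of these means. Without it, all 33 genes had a lower mean in the IK group, beside 45.9% of all tested genes. Differences ran from -1.68 (Pvalb) to -0.02 (Eno3), with a median of -0.91. These genes move together, so their shared direction is not 33 separate observations. An unadjusted p under 0.05 was then reached by 18 of the 33, against 20.8% of the 13984 genes tested in that fit, and after adjustment by 0 of the 33 and 0% of all (limma, smallest adjusted p in the set 0.196). Ttn differed by -1.29 with a standard error of 0.38 (unadjusted p = 0.00586, limma), Pvalb by -1.68 with 0.51, Tcap by -1.39 with 0.44 and Neb by -1.09 with 0.37, all at an adjusted p of 0.196. In the same tumors, fat cell genes had a median difference of -1.17 (-0.96 over all 12 tumors) and cytotoxic lymphocyte genes one of -2.25 (-1.94 over all 12), over 6 tested genes each, and their part in the result was not tested. The p-values of that fit hold only given the removal of a tumor that was seen to be low. In the other direction, the median difference turned to 0.12 without SC5, the highest tumor, and to 0.03 without IK1. It was -0.30 without IK2, -0.20 without SC3, -0.04 without IK4 or SC2 and -0.01 without SC1.

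**Figure D4:**
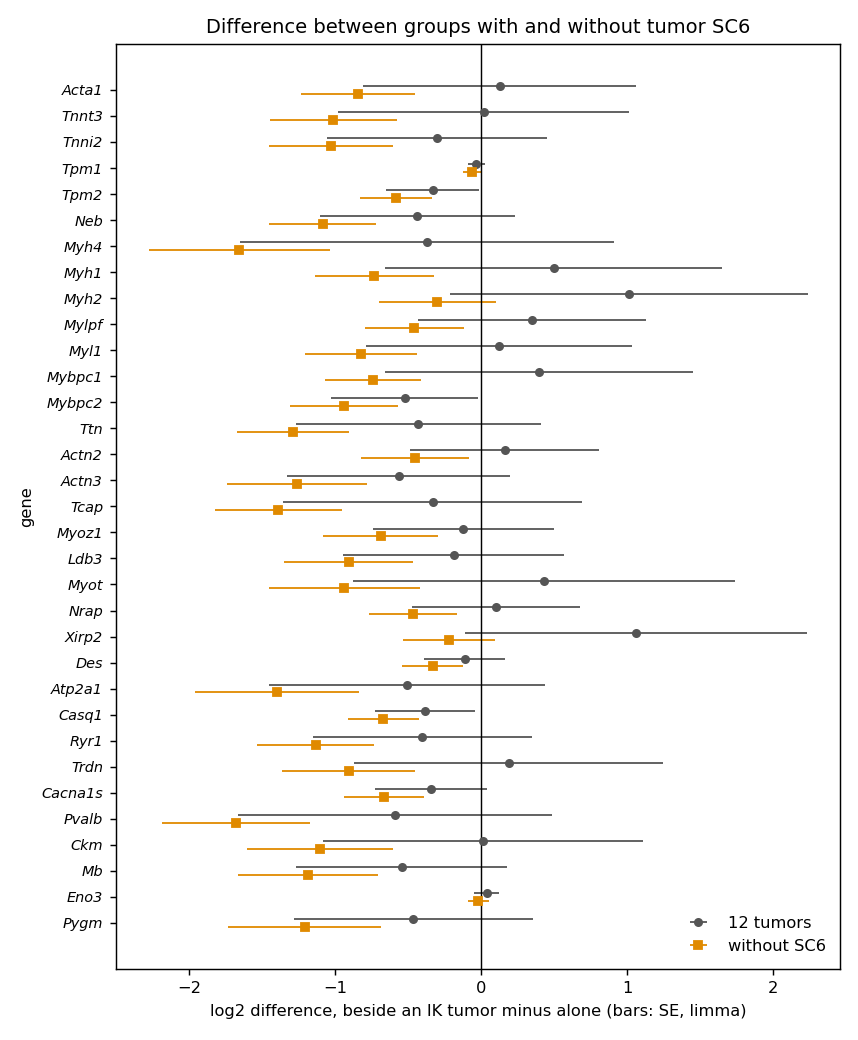
Difference between the group means (IK minus SC, log2 scale) with its standard error from limma, for the 33 tested genes in all 12 tumors (grey) and without SC6 (orange). Every orange point lies to the left of its grey one, and 33 of 33 are below 0, beside 45.9% of all genes tested without SC6.

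How tightly the genes moved together was described by the log2 ratio of each gene to Ckm in the same tumor. A gene that keeps a fixed ratio to Ckm has a small SD of this ratio over the tumors, whatever its own level. Tnnt3 held closest, with an SD of 0.23 over 12 tumors, followed by Trdn (0.30), Acta1 (0.33), Tcap (0.33), Myl1 (0.40) and Pvalb (0.43), while Ckm itself had an SD of 2.04. The median SD was 0.73 over the other 32 tested genes of the set and 2.05 over all tested genes. Without SC6 these were 0.43 and 1.08. Tpm1 and Eno3, at 1.98 and 1.91, were the farthest of the set from Ckm, just under the median of all tested genes.

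Of the 30 genes nearest to Ckm by this measure, 21 belong to the set. Among the 10 nearest from outside the set were Apobec2 (SD 0.49), Pdlim3 (0.59), Smyd1 (0.69), Eef1a2 (0.71), Mybph (0.73), Klhl40 (0.77), Ankrd2 (0.82), Csrp3 (0.85) and Ndrg2 (0.95). Several are known from striated muscle. Smyd1 is a methyltransferase needed for sarcomere assembly, Csrp3 is a LIM protein of the Z-disc, and Eef1a2 is the elongation factor that replaces its common form in mature muscle and neurons. Eef1a2 without SC6 had an SD of 0.22, beside 0.19 for Tnnt3, 0.25 for Tnni2 and 0.49 for Tnnc2. Apobec2 fell to 3 reads in SC6 and stood at 2.71 log2 CPM in SC5.

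Further muscle genes from lists fixed by name showed the pattern in part. Of 27 other sarcomere genes, 20 were found and 17 of them were lowest in SC6, among them Fhl1 (2.23 log2 CPM in SC6 and 3.69 to 5.42 elsewhere), the filamin C gene Flnc (2.27 and 2.98 to 4.91) and Csrp3 (1 read in SC6). Their 18 tested members had a median difference of -0.11 between the groups. Of 13 other calcium handling and triad genes, 8 were found and 5 were lowest in SC6, and of 15 other metabolic genes, 10 were found and 3 were lowest there. Pfkm and Gys1, the phosphofructokinase and glycogen synthase genes that other tissues share, spanned 0.26 and 1.19 log2 units. Of 13 membrane and junction genes, 6 were found and 2 were lowest in SC6. Of all tested genes, 10.3% were lowest in that tumor. In these 4 lists 0 genes passed after adjustment and 0 of 37 tested had an unadjusted p under 0.05 (limma), and voom called 0.

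Genes of muscle formation were few. Of 10 genes of developing or regenerating muscle, only Myh8, the perinatal heavy chain, and the adhesion gene Ncam1 were found, both lowest in SC6 and highest in SC5. Myod1, Myog, Myf5, Pax7 and Myh3 were among the 8 not analysed here. Trim63 and Fbxo32, ligases that mark muscle proteins for breakdown, spanned 0.86 and 0.78 log2 units, and Trim63 was highest in SC6, opposite to the sarcomere genes. Of 8 heart genes, 2 were found: Tnnt2 spanned 0.67 and Ankrd1 0.86 log2 units.

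Markers of other tissues that border a subcutaneous tumor were set beside these values. Smooth muscle genes were found for 8 of 8. Their summed level was 256 to 301 CPM in the IK group and 240 to 375 CPM in the SC group. Of the 8, 2 were lowest in SC6, beside 10.3% of all tested genes. Fat cell genes were found for 7 of 10, with 196 to 231 and 215 to 268 CPM, a sum that Plin4 dominates (mean of 7.58 log2 CPM). All 6 tested fat genes had a lower mean in the IK group, beside 46.7% of all tested genes. The fat hormone gene Adipoq lay at -1.31, 0.77, 0.03, -1.41, 0.55 and -1.22 log2 CPM in IK1 to IK6 and at 0.80, 1.65, -0.09, 0.07, 2.08 and -0.20 in SC1 to SC6. Thus IK1 and IK4 were low and SC5 was high for Adipoq as for Ckm. IK6 was also low for Adipoq but a middle tumor for Ckm (4.08 log2 CPM), and SC6 was not the lowest. Of the 7 fat genes, 0 were lowest in SC6 and 5 were highest in SC5, beside 10.3% and 18.1% of all tested genes. None of 14 skin epithelium and hair genes was among the genes analysed here. Peripheral nerve genes were found for 5 of 8, with a summed level of 181 to 197 CPM in the IK group and 166 to 214 CPM in the SC group. Tendon and cartilage genes were found for 3 of 8 (113 to 140 and 108 to 124 CPM), a sum that Scx dominates (mean of 6.65 log2 CPM). Scx was lowest in SC1, and Thbs4 and Fmod were lowest in SC6. Thbs4 stood at 0.997 log2 CPM in SC6 and at 2.34 to 4.09 elsewhere, and Fmod at 2.38 and 2.86 to 3.84. In these lists 0 genes passed after adjustment between the groups, and voom called 0. An unadjusted p under 0.05 (limma) was reached by 3 of 6 tested fat genes (Adipoq, Cidec and Cfd, named after their values were seen), 1 of 8 smooth muscle genes (Cnn1), 0 of 4 nerve genes and 0 of 3 tendon genes, beside 11.5% of all tested genes. The part of fat, nerve or tendon in the spread of the muscle genes, and the amount of muscle taken along with each tumor, were not tested.

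**Figure D5:**
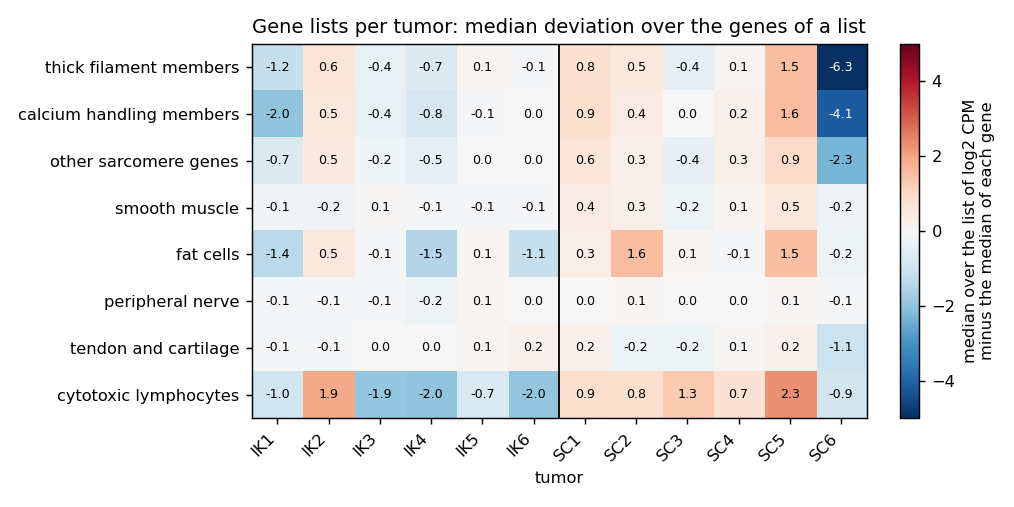
Median, over the genes of a list, of log2 CPM minus the median of each gene over the 12 tumors, for 8 lists (rows) in each tumor (columns), with the value in each cell. The muscle rows are lowest in SC6 (-6.32 for thick filament genes), as is the tendon and cartilage row (-1.08, over 3 genes). The fat row is lowest in IK4 (-1.46) and close to 0 in SC6 (-0.25).

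All 6 cytotoxic lymphocyte genes had a lower mean in the IK group and an unadjusted p under 0.05, beside 11.5% of all tested genes, and 0 passed after adjustment (limma, adjusted p = 0.432 for each). All 6 were highest in SC5 and 0 were lowest in SC6, beside 18.1% and 10.3% of all tested genes. Cd8a, the CD8 coreceptor gene, stood at 3.96 log2 CPM in SC5 and 0.88 in SC6, the tumors highest and lowest for the sarcomere genes. It was nearly as high in IK2 (3.86), and lowest in IK4 (-0.23) and IK6 (-0.11), of which IK6 was a middle tumor for the sarcomere genes. Immediate early genes, which respond to handling of tissue, had a summed level of 435 to 592 CPM in the IK group and 424 to 482 CPM in the SC group, and 3 of 9 had an unadjusted p under 0.05 (limma), each higher in the IK group. Their part in the result was not tested.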

How the data were processed

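RNA of 12 whole tumors, 6 per group, was sequenced. Per the submitters' processing notes, CASAVA 1.8.2, TopHat 1.4.1, HTSeq, limma and build mm9 were used. Annotation release and strand handling are not given in the sources used here, so reads of overlapping genes cannot be told apart. The authors deposited log2 values for 14496 genes in the form of log2 CPM with 0.5 reads added, and they were used without further scaling. In every column 100% of the values gave a whole number of reads within 0.001 read, times 1 step per tumor. The reads recovered in this way came to 53312559 to 66142468 per tumor, so counting error is small except where reads are few, as for many genes in SC6. The library size implied by the step was near the recovered reads but not equal to them. It was 5.73e+07 against 58215590 in IK2 and 6.36e+07 against 63136888 in SC5. The deposited values are therefore not scaled to the plain sum of the reads. Within a group, none of the 30 pairs of tumors looked like 1 library deposited again (chi-square divided by its degrees of freedom, 13.5 to 169).

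Symbols were taken by Ensembl ID from GENCODE M21 names (14004 genes matched). Exon lengths come from its basic annotation. The test was that of limma 3.58.1 under R 4.3.3 (trended empirical Bayes, two-sided, Benjamini-Hochberg over 14008 genes, threshold 0.05), after a test of the code on simulated data. Counts with unadjusted p, the ratio to Ckm, shares and motif counts are descriptions. Values are printed in full, or by lowest, median and highest tumor, for the 2 genes of highest mean level in each role. From outside the set, the rule names the 10 genes with the smallest SD of the ratio to Ckm, of which 1 is not reported here. Other examples were picked with their values in view. The set and the lists were chosen with earlier results of these data known. The alternatives were other filters, scalings, library sizes and variance models, voom, a replicate block and leaving out each tumor.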

Additional observations from a re-analysis of the deposited data

Results flagged for a closer look

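In the SC group, SC6 stood apart at the low end for 22 of the 34 genes: the gap between SC6 and the next lowest SC tumor, divided by the range of the group, was above the 95% critical value of 0.625 for 6 samples. By role, this fraction was 0.751 for Acta1, 0.735 for Tnnt3, 0.665 for Tnni2 and 0.706 for Tnnc2 in the thin filament. In the thick filament it was 0.724 for Myh4, 0.690 for Myh1, 0.707 for Myh2, 0.726 for Mylpf, 0.740 for Myl1 and 0.761 for Mybpc1. Among titin and Z-disc genes it was 0.665 for Ttn, 0.736 for Tcap, 0.664 for Ldb3, 0.842 for Myot and 0.758 for Xirp2. Among calcium genes it was 0.660 for Atp2a1, 0.660 for Ryr1, 0.780 for Trdn and 0.707 for Pvalb, and among energy genes 0.739 for Ckm, 0.629 for Mb and 0.625 for Pygm. In the IK group 0 of the 34 genes had such a tumor. About 1 in 20 groups would pass this value by chance, and the 22 genes move together, so they count as a single observation on 1 tumor.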

How the results depend on the processing

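In each of the 22 alternative fits (limma), 0 of the tested genes of the set were called in either direction, and the smallest adjusted p in the set was 0.183 to 0.639 without leaving out a tumor and 0.196 to 0.781 with 1 left out. The median difference of the set ranged from -0.91 (without SC6) to 0.12 (without SC5) beside -0.12 in all 12 tumors, and was -0.53 with array weights and -0.16 with voom. With the replicate block it was -0.12. Same-numbered tumors correlated in their deviations at -0.31 to 0.45 and 1 of 6 IK tumors correlated best with its own number, so the numbers were not taken as pairs, and the block moved no count of calls. Of all genes, 0 were called, against 1 without the variance trend, 545 with array weights and 0 to 137 when single tumors were left out (137 without IK2). Of 220 alternative values for the 10 genes printed by tumor, 17 had another sign than with all 12 tumors, and 0 passed the threshold. The span between the highest and lowest share of reads was 2.44-fold for the set, 2.01-fold with the other muscle lists added, and 11.6-fold without Tpm1. The median SD of the ratio to Ckm over the tested genes other than Ckm was 0.73, and with SC6 left out 0.43. In SC6, values rest on 0 to 3 reads for several genes, so their log2 levels there depend on the 0.5 reads added.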
